A study of Oryctolagus cuniculus with 16 samples.

Results

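The intima of the rabbit basilar artery was compared with its media 24 h after both common carotid arteries were ligated. The comparison used 8 of the 16 RNA-seq libraries. These were 4 intimal and 4 medial libraries, chosen by their labels as the intima and the media of the straight basilar artery (BA) and of its terminus (BT) in rabbits 5 and 6. Each intimal library was paired with the medial library of the same rabbit and location, which gave 4 pairs from 2 rabbits. All animals of the series were female New Zealand white rabbits, perfused with heparinised saline before the arteries were taken. Ligation raises flow, and thus wall shear stress, in the basilar artery, and the other 8 libraries came from the same layers and locations of rabbits 3 and 4, which had sham surgery and normal flow. Tissue was laser-microdissected from frozen sections, about 10 of which were pooled for a library, and the study states that some smooth muscle could not be kept out of the thin intimal strips. The libraries are thus layers enriched in a cell type, not sorted cells, and in bulk RNA fewer cells of a type and less RNA per cell cannot be told apart.

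The intima of a cerebral artery is a single sheet of endothelial cells (ECs) on a basement membrane and the internal elastic lamina. ECs sense shear stress, make nitric oxide and prostanoids, hold the barrier through tight junctions, and display adhesion molecules to blood cells. The media consists of vascular smooth muscle cells (VSMCs), which carry the contractile apparatus, the ion channels that set tone, and the collagens and elastic fibres of the wall. Outside the media lie adventitial and leptomeningeal fibroblasts and resident macrophages.

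The intimal libraries held 5211886 to 11462861 counts on named genes and the medial libraries 2154863 to 8504341, with 8044 to 8954 and 8202 to 9016 genes detected. Replicates of a layer and location differed by far more than counting error, with a chi-square per degree of freedom of 18.6 to 168. Levels are given as CPM scaled by the trimmed mean of M-values (TMM CPM), where CPM is a gene's share of the library's counts. CPM is not corrected for gene length, so the level of a gene is compared between libraries. Rankings of genes by CPM and sums of CPM over markers also depend on gene length.

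In these libraries 134 of 8767 genes tested passed a q-value of 0.05 (1.53%), 81 of them higher in the intima (0.924%) and 53 higher in the media (0.605%). The median log2 fold change, intima over media, was 2.36 among the first and -1.79 among the second. Genes of barrier, nitric oxide synthesis and leukocyte adhesion were among those higher in the intima, and genes of a vascular potassium channel, the muscle cytoskeleton, collagens and the fibroblast proteoglycan LUM among those higher in the media. All 134 moved the same way in 4 of 4 pairs, which 13.4% of all genes tested did toward the intima and 14.3% toward the media. The layers did not overlap for 127 of the 134, against 6.94% of all genes with the intima above and 6.49% with the media above. The calls were made on the same 4 pairs, so neither count is further support for them. The test was edgeR's quasi-likelihood F test with the pair as a block and Benjamini-Hochberg adjustment. The 4 pairs came from 2 rabbits and 2 pairs therefore shared an animal, so these p-values are too small. No gene passed in the BA pairs alone or in the BT pairs alone, the count fell to 5, 0 and 1 without the BA pair of rabbit 6, the BT pair of rabbit 5 and the BT pair of rabbit 6, and to 0 without rabbit 6, whereas 140 genes passed without the BA pair of rabbit 5 and 143 without rabbit 5, of which 88 and 65 were among the 134. With the BA and BT summed per rabbit, so that each animal counted once in a layer, 90 genes passed and 81 of the 134 no longer did. Without the pair as a block 231 passed, 125 of the 134 among them. Of the 78 called genes named in the text, 32 had a log2 fold change that moved by over 1.5 times in fold when a rabbit or a pair was left out, 31 of them without rabbit 5 and 28 without rabbit 6. Scaled to library size alone, the median over all genes moved from -0.02 to 0.22 and the share of called genes that were higher in the intima from 60.4% to 79.0%.

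**Figure D1:**
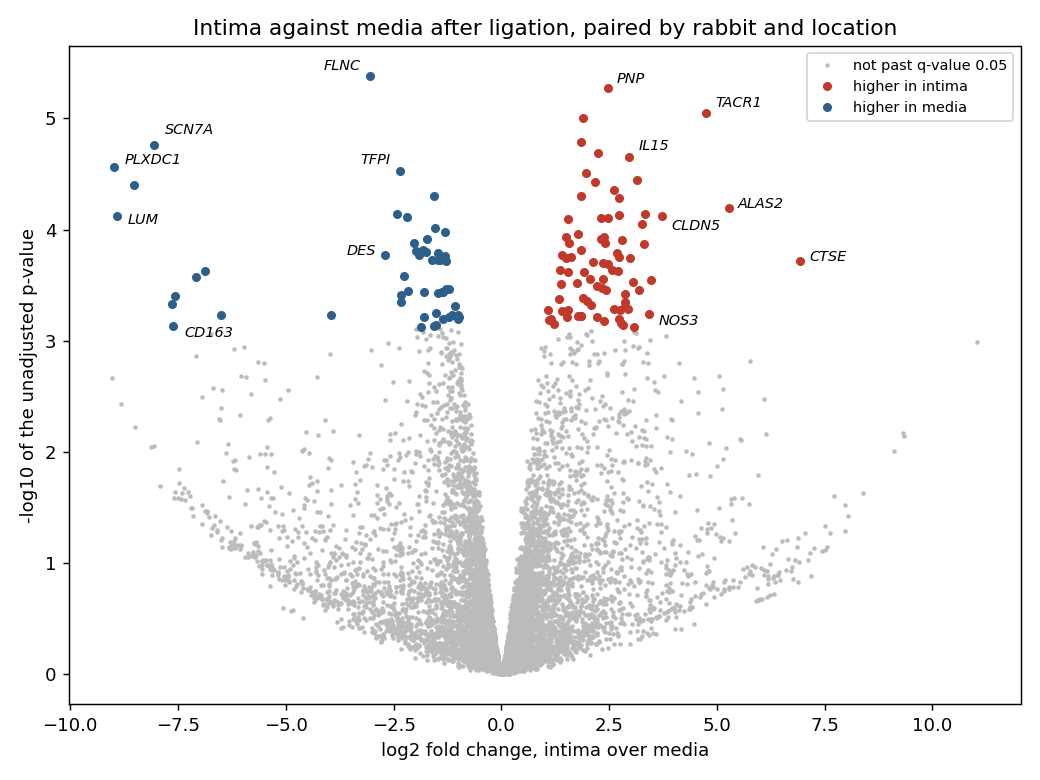
Each point is 1 of the 8767 genes tested, placed by its log2 fold change of intima over media (horizontal) and by -log10 of its unadjusted p-value (vertical). Red points are the 81 genes higher in the intima and blue points the 53 higher in the media at a q-value below 0.05, and the gene names mark members described in the text. Of the genes at the far left, PLXDC1 had almost no counts in the intima, and LUM had intimal counts only in the BT of rabbit 6.

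The layers were checked by markers of each cell type. Of 19 endothelial markers tested, 4 were higher in the intima and 0 in the media, the median log2 fold change was 2.95 against -0.02 over all genes, and 17 of 19 were positive. CLDN5, the tight junction claudin of brain endothelium, had 646 and 935 CPM in the BA intima of rabbits 5 and 6 and 715 and 1232 CPM in the BT intima. The matching media had 85.3, 15.6, 67.8 and 146 CPM. The layers did not overlap, and CLDN5 was higher in the intima by 3.74 on the log2 scale (SE 0.51, q = 0.0251, 4 of 4 pairs). ICAM2 and CD34, adhesion and surface glycoproteins of ECs, were also higher in the intima, by 3.0 (SE 0.46, q = 0.0281) and 2.47 (SE 0.39, q = 0.0283). Without rabbit 6 the log2 fold changes of ICAM2 and CD34 were 1.98 and 1.72, and without rabbit 5 those of CLDN5, ICAM2 and CD34 were 4.41, 4.03 and 3.23. CLDN5 had 3.13 without the BA pair of rabbit 6. TEK, the angiopoietin receptor, was above the media in 4 of 4 pairs without passing the test (log2 fold change 3.44, SE 0.69, q = 0.0550). The layers of VWF overlapped, at 631, 1071, 244 and 680 CPM in the intima and 303, 45.9, 337 and 107 CPM in the media. Only in the BT of rabbit 5 was VWF lower in the intima than in its media, and its q-value was 0.266. The markers thus did not move as a block. ESAM had 570 ± 200 CPM in the intima and 468 ± 94.1 CPM in the media (SD, n = 4; q = 0.739). MMRN2 had 49.1 ± 2.66 and 92.7 ± 13.8 CPM (SD, n = 4), higher in the media in 4 of 4 pairs but with q = 0.122. KDR, the main VEGF receptor of ECs, was at or below 0.865 CPM in all 4 intimal libraries and at 1.33 to 2.52 CPM in the media (q = 0.486).

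The summed level of the 20 endothelial markers in the table was 4276 to 6550 CPM in the intima and 675 to 1996 CPM in the media, lowest in the BA media of rabbit 6. The 15 contractile VSMC markers summed to 16488 to 69152 CPM in the intima and 100642 to 162610 CPM in the media. All 15 were lower in the intima, with a median log2 fold change of -1.23, but only DES passed the test. DES, the intermediate filament protein desmin, had 381 and 647 CPM in the BA intima and 55.1 and 588 CPM in the BT intima of rabbits 5 and 6, against 1562, 3342, 1171 and 2639 CPM in the media. It was lower in the intima by 2.70 on the log2 scale (log2 fold change -2.70, SE 0.41, q = 0.0281). The BT intima of rabbit 5 was the lowest intimal library for DES, for ACTA2 (10371 CPM against 39900 to 45789 CPM in the other 3) and for MYH11 (107 CPM against 366 to 413 CPM). ACTA2 and MYH11 were above the intima in all 4 medial libraries and did not pass (q = 0.0908 and q = 0.125).

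**Figure D2:**
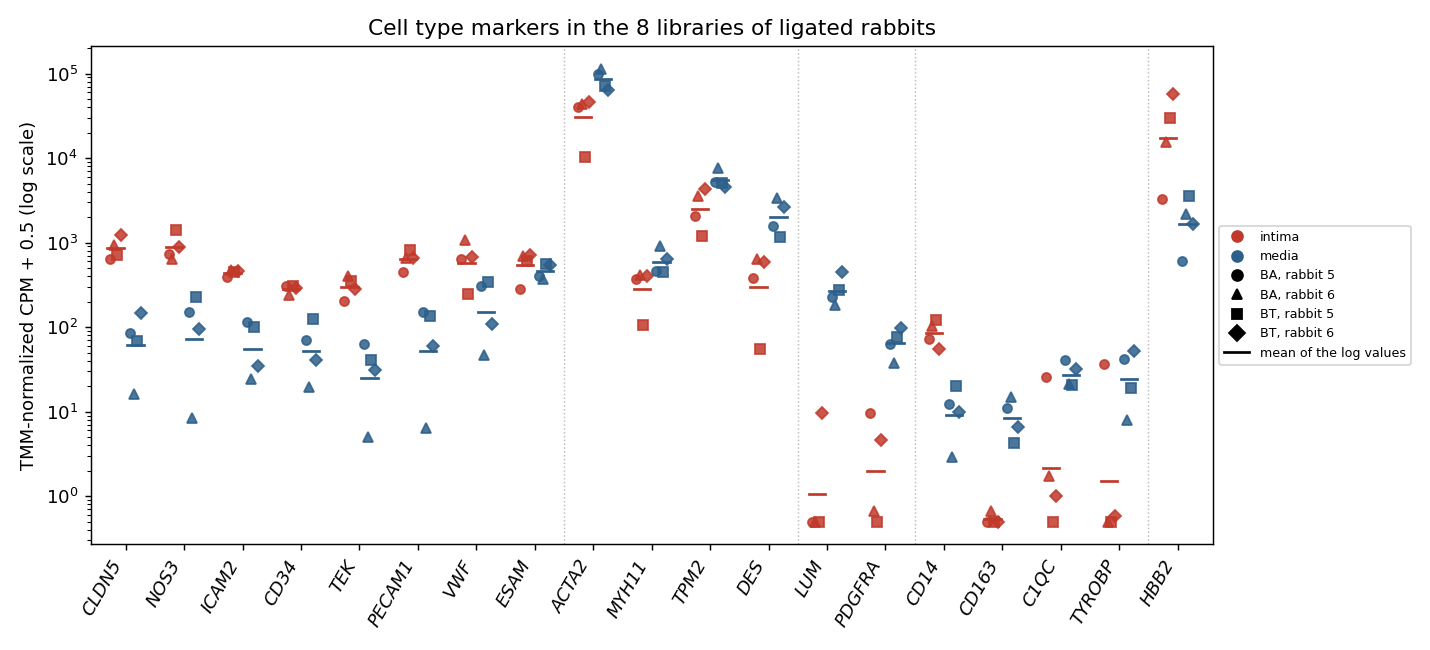
Levels of 19 cell type markers in TMM CPM plus 0.5 (log scale) in the 8 ligated libraries, intima in red and media in blue, with a symbol for each rabbit and location and a bar at the mean of the log values. Dotted lines separate endothelial, contractile, fibroblast, macrophage and red cell markers. The intimal points of CLDN5, NOS3, ICAM2 and CD34 lie above all medial points, those of VWF and ESAM overlap with the media, and LUM, CD163 and C1QC lie near 0 in most intimal libraries.

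Of 13 fibroblast and leptomeningeal markers tested, 3 were higher in the media and 0 in the intima, 12 of 13 were negative, and the median log2 fold change was -1.97. LUM, the collagen-binding proteoglycan lumican, was at 0 in 3 of 4 intimal libraries and at 9.24 CPM in the BT intima of rabbit 6. The media had 225, 180, 277 and 451 CPM, so the layers did not overlap (q = 0.0251). With 3 libraries at 0, its fitted fold change is no measure of size and is not given. ALDH1A2, which makes retinoic acid in leptomeningeal fibroblasts and other mesenchyme, had a log2 fold change of -2.19 (SE 0.30, q = 0.0251), and COL1A2, a chain of type I collagen, one of -1.52 (SE 0.29, q = 0.0488). The other members did not all follow. DCN, the proteoglycan decorin, had 1962 CPM in the BA intima of rabbit 5, as much as in its media (1940 CPM), but 17.7, 0 and 32.7 CPM in the other 3 intimal libraries against 1532, 1243 and 2454 CPM in their media (q = 0.153). PDGFRA had 9.05, 0.173, 0 and 4.16 CPM in the intima and 61.9, 37.4, 76.0 and 96.1 CPM in the media (q = 0.0618). The summed level of the 13 markers was 884 to 5383 CPM in the intima, highest in the BA of rabbit 5, and 6523 to 8459 CPM in the media.

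Of 9 macrophage markers tested, 8 had a negative log2 fold change, and CD14 was the exception. Past the test, 1 was higher in the intima and 1 in the media, and 6 of 9 were below the media in 4 of 4 pairs. The median log2 fold change was -4.62, the fitted value of C1QC, but the median log2 ratio of the BA pair of rabbit 5 was -0.19. CD14, a receptor for lipopolysaccharide, had 71.4, 103, 122 and 55.3 CPM in the intima and 11.7, 2.39, 19.5 and 9.34 CPM in the media (log2 fold change 3.19, SE 0.54, q = 0.0366, and 3.82 without rabbit 5). CD163, the haemoglobin scavenger receptor of tissue macrophages, had 1 count in all intimal libraries together and 139 in the media (q = 0.0488). With the counts of a layer pooled and divided by its pooled scaled library size, media over intima was 310 (95% exact interval 54.7 to 12323, counting error only). CD14 and CD163 thus lay in opposite layers with no overlap in either. C1QC, TYROBP and MRC1 had 25.5, 36.4 and 6.46 CPM in the BA intima of rabbit 5, at most 1.21 CPM in the other 3 intimal libraries, and 20.2 to 40.0, 7.42 to 52.4 and 3.45 to 21.3 CPM in the media. None of these 3 passed (q = 0.140, 0.142 and 0.143). The 11 macrophage markers in the table summed to 61.0 to 212 CPM in the intima and 79.3 to 190 CPM in the media. CD14 made up 90.6% to 100% of that sum in 3 intimal libraries (the BA of rabbit 6 and the BT of both rabbits) and 33.6% in the BA intima of rabbit 5. The other 10 markers summed to 7.79, 0 and 5.75 CPM in those 3 libraries and to 141 CPM in the BA intima of rabbit 5, against 76.9 to 181 CPM in the media. Only the BA intima of rabbit 5 thus reached the medial range without CD14. No lymphocyte marker reached the level for testing, and the 6 in the table summed to 0 to 2.17 CPM in any library.

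Both red cell transcripts tested were higher in the intima, the layer that faces the blood, although the animals had been perfused. HBB2, a beta-globin, had 3312 and 15442 CPM in the BA intima and 30200 and 57495 CPM in the BT intima of rabbits 5 and 6. The media had 604, 2151, 3571 and 1640 CPM, and the BA intima of rabbit 5 lay within its range. HBB2 was higher in the intima by 3.34 (SE 0.45, q = 0.0251), and ALAS2, the erythroid enzyme of haem synthesis, by 5.28 (SE 0.70, q = 0.0251), in 4 of 4 pairs each. Without rabbit 5 the values were 3.99 and 6.12, and ALAS2 had 4.34 without rabbit 6. Whether red cells in the lumen, the fibroblast and macrophage transcripts and the VSMC share of the strips have a part in the other layer differences was not tested. Of 7 pericyte markers tested, 2 (KCNJ8 and ABCC9) were higher in the media. Brain parenchyma gave 0 of 3 tested markers past the test and summed to at most 13.6 CPM in any library.

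Among the genes higher in the intima, those with the smallest q-values included the purine enzyme PNP and the signalling receptor TACR1. PNP, purine nucleoside phosphorylase, splits inosine and guanosine. It had 202, 259, 396 and 229 CPM in the intima and 48.5, 47.2, 64.3 and 34.7 CPM in the media (log2 fold change 2.47, SE 0.24, q = 0.0218). The lowest intimal library lay well above the highest medial one. TACR1, the receptor of substance P, through which that peptide acts on endothelium, had 115, 15.7, 278 and 44.3 CPM in the intima and 5.33, 0, 12 and 1.89 CPM in the media. Its level was higher in rabbit 5 than in rabbit 6 in both layers and at both locations, and its log2 fold change was 4.76 (SE 0.49, q = 0.0218), or 5.36 without rabbit 5. PTHLH, the relaxant peptide parathyroid hormone-related protein, showed the same order, with 184, 36.7, 589 and 122 CPM in the intima and 41.6, 1.86, 44.1 and 18.1 CPM in the media (log2 fold change 3.15, SE 0.39, q = 0.0248). The BA intima of rabbit 6 lay within the medial range of PTHLH, though above its own media. The other 7 of the 10 smallest q-values were S100A10, NTAN1, CD2AP, IL15, STK17A, SYNE2 and DEPP1. Their log2 fold changes ran from 1.85 for NTAN1 (q = 0.0246) to 2.97 for IL15 (q = 0.0246), and none of these 7 overlapped between the layers.

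Of the called genes with the highest CPM, those in the intima included HBB2, B2M, ITM2B, VCAM1, TM4SF1, SH3BGRL3, PTPRG, NOS3, ITPRID2 and S100A10. B2M, the light chain of class I molecules, had 11232 ± 1888 CPM in the intima and 3892 ± 1554 CPM in the media (SD, n = 4; log2 fold change 1.61, SE 0.25, q = 0.0281). VCAM1, the leukocyte adhesion molecule of activated endothelium, had 4108, 3974, 7546 and 4358 CPM in the intima and 1626, 149, 1249 and 790 CPM in the media. It was higher in the intima by 2.74 (SE 0.51, q = 0.0454) without overlap, by 1.97 without rabbit 6 and by 3.59 without rabbit 5, past the test in neither. The smallest change of these 10 was that of SH3BGRL3, at 1.40 (SE 0.21, q = 0.0281).

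The endothelial side of tone control was described by 19 tested genes, of which 3 were higher in the intima and 0 in the media (median log2 fold change 2.00). NOS3, endothelial nitric oxide synthase, had 741, 645, 1423 and 881 CPM in the intima and 151, 7.95, 229 and 94.4 CPM in the media (log2 fold change 3.44, SE 0.63, q = 0.0450). The value for NOS3 was 2.47 without rabbit 6 and 4.64 without rabbit 5, past the test in neither. The BA media of rabbit 6 held the lowest NOS3, as it held the lowest sum of endothelial markers. ASS1, which regenerates the arginine that NOS3 uses, was higher in the intima by 3.32 (SE 0.49, q = 0.0281), and PTGS2, the inducible cyclooxygenase, by 2.62 (SE 0.47, q = 0.0444). These were 2.66 and 1.94 without rabbit 6 and 4.0 and 3.41 without rabbit 5. GCH1, the first enzyme of the NOS3 cofactor tetrahydrobiopterin, was above the media in 4 of 4 pairs and missed the threshold (log2 fold change 3.30, SE 0.91, q = 0.116). EDN1, the precursor of the constrictor endothelin-1, had 41.0, 117, 6.82 and 58.3 CPM in the intima and 47.5, 0, 52.0 and 8.75 CPM in the media. Endothelin was thus the higher in the intima of rabbit 6 and in the media of rabbit 5 (q = 0.769).

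On the medial side 31 receptors and effectors of tone were tested, 2 were higher in the media and 0 in the intima, and 25 of 31 were negative (median log2 fold change -1.0). The 2 were KCNJ8 and ABCC9, the pore and the regulatory subunit of the vascular ATP-sensitive potassium channel. KCNJ8 had 26.3, 14, 10.4 and 10.6 CPM in the intima and 95.5, 94.4, 59.3 and 64.1 CPM in the media (log2 fold change -2.43, SE 0.33, q = 0.0251). ABCC9 had 164, 142, 66.5 and 118 CPM in the intima and 538, 424, 199 and 303 CPM in the media (log2 fold change -1.56, SE 0.20, q = 0.0251). Both subunits were lower in the intima in 4 of 4 pairs and without overlap. EDNRA, the endothelin receptor of VSMCs, was lower in the intima in 4 of 4 pairs but not past the test (log2 fold change -1.20, SE 0.30, q = 0.0956). NPR1, the receptor of atrial natriuretic peptide, went the other way, with 70.1 ± 36.0 CPM in the intima and 13.9 ± 10.4 CPM in the media (SD, n = 4; q = 0.166).

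Apart from KCNJ8, ABCC9, LUM and ALDH1A2, the 10 smallest q-values of genes higher in the media belonged to FLNC, SCN7A, PLXDC1, TFPI, CCL2 and BMPR1A. FLNC, the actin crosslinker filamin C, had 28.1, 61.1, 7.08 and 26.3 CPM in the intima and 208, 371, 94.2 and 217 CPM in the media (log2 fold change -3.06, SE 0.28, q = 0.0218). FLNC was lowest in the BT of rabbit 5 in both layers. SCN7A, an atypical sodium channel, was at 0 in 3 of 4 intimal libraries and at 7.88 to 96.4 CPM in the media (q = 0.0246). PLXDC1, a transmembrane protein with a plexin-like domain, had 1 count in the intima and 427 in the media (q = 0.0248). With counts pooled as for CD163, its ratio of media over intima was 952 (95% exact interval 170 to 37675, counting error only). TFPI, the inhibitor of the tissue factor pathway, is classically ascribed to endothelium. Here it had 143, 121, 243 and 128 CPM in the intima and 594, 574, 870 and 1256 CPM in the media (log2 fold change -2.35, SE 0.28, q = 0.0248). The media held the higher level of TFPI in every pair without overlap.

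The called genes with the highest CPM in the media were CRYAB, SLMAP, PDLIM5, CTSK, FHL1, COL3A1, CALU, SAMD4A, COL12A1 and DES. CRYAB, a small heat shock protein that binds desmin and actin, had 13572, 10241, 2556 and 5263 CPM in the intima and 32766, 30293, 9325 and 10598 CPM in the media. Both layers held more CRYAB in the BA than in the BT, so the layers overlapped over all 8 libraries but not within a pair (log2 fold change -1.43, SE 0.22, q = 0.0281). CTSK, the collagen-degrading cathepsin, had 1702 ± 282 CPM in the intima and 3541 ± 434 CPM in the media (SD, n = 4; log2 fold change -1.06, SE 0.19, q = 0.0428). The changes of the other 8 ran from -1.0 for CALU (q = 0.0454) to -2.70 for DES.

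**Figure D3:**
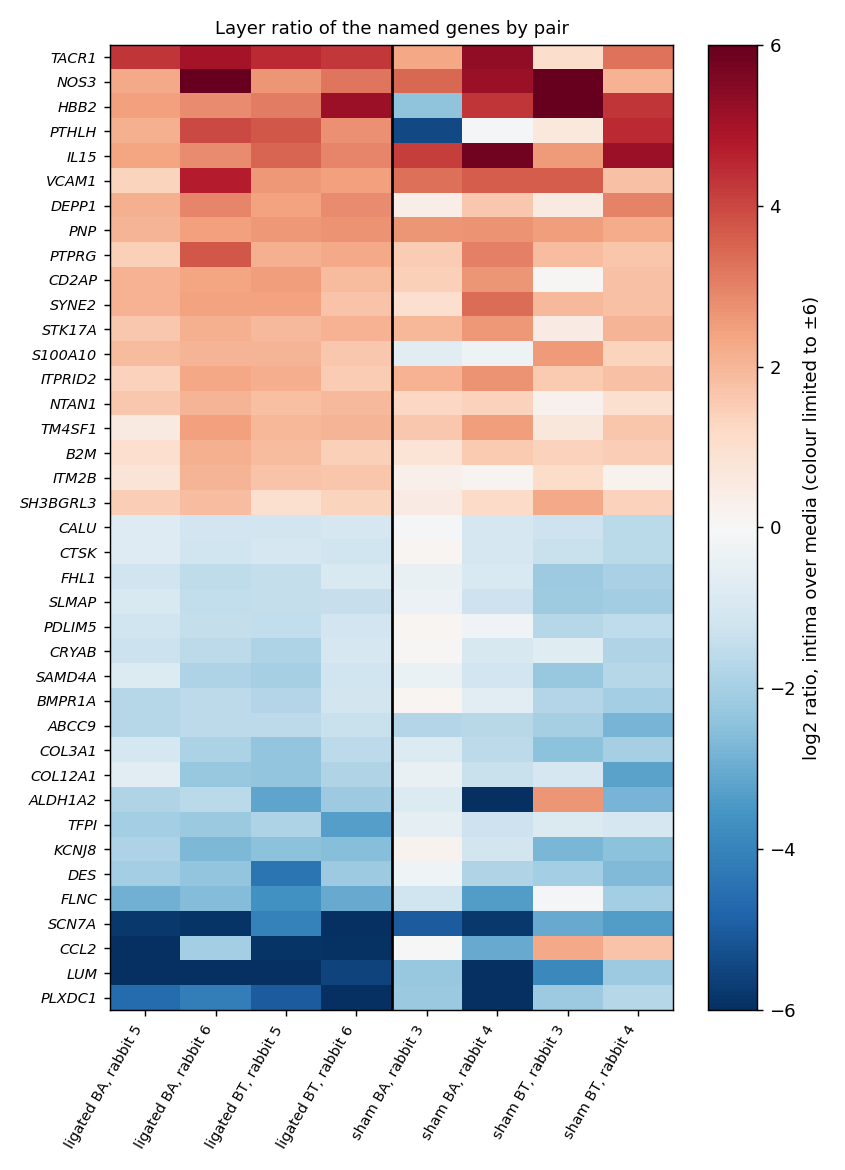
Log2 ratio of intima over media of the genes named by the 2 rules (smallest q-values and highest CPM), 1 row for each gene, in the 4 ligated pairs (left of the line) and the 4 sham pairs (right). Ratios are of TMM CPM plus 0.5 over 16 libraries, red higher in the intima and blue higher in the media. Every ligated pair has the colour of its row, whereas the sham pairs of 10 of the 39 genes take both colours (CCL2, PTHLH, ALDH1A2, HBB2, S100A10, KCNJ8, BMPR1A, CTSK, PDLIM5 and CRYAB).

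All calls among the listed interstitial and elastic matrix genes were in the media. Of 28 interstitial and elastic matrix genes tested, 5 were higher in the media, 0 in the intima and 23 of 28 were negative (median log2 fold change -1.17). COL3A1, a fibrillar collagen, had 919, 724, 676 and 1188 CPM in the intima and 1920, 2743, 3463 and 3533 CPM in the media (log2 fold change -1.73, SE 0.25, q = 0.0281). VCAN, the large proteoglycan versican, had 0, 9.17, 0.175 and 2.00 CPM in the intima and 113, 76.6, 78.5 and 134 CPM in the media (q = 0.0450). The log2 fold changes of COL12A1 and COL1A2 were -1.79 and -1.52, and that of FBN1, the microfibril protein fibrillin-1, was -1.01 (SE 0.18, q = 0.0450). None of these 5 overlapped between the layers. The 17 basement membrane genes had 0 calls and a median of -0.20. The 26 metalloproteinases and inhibitors had 1 call, ADAM15 (log2 fold change 2.77, SE 0.52, q = 0.0477). Over all genes 1.53% were called and 0.605% were called higher in the media. For lists of this size 0 or 1 call is near that share. TIMP1, the tissue inhibitor of metalloproteinases, had 9111 ± 5756 CPM in the intima and 8763 ± 5536 CPM in the media (SD, n = 4; q = 0.861). Of 16 integrins, ITGB4 was higher in the intima (log2 fold change 2.75, SE 0.50, q = 0.0444) and ITGA5, a subunit of the fibronectin receptor, in the media (log2 fold change -1.20, SE 0.20, q = 0.0366). Without rabbit 6 and without rabbit 5 the values were 1.83 and 3.74 for ADAM15 and 1.85 and 3.72 for ITGB4.

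Of 19 junction genes 4 were higher in the intima and 0 in the media, with 17 positive and a median log2 fold change of 2.07. Beside CLDN5 these were OCLN, JAM2 and GJA5. OCLN and JAM2, further tight junction proteins, had 71.1 ± 15.1 and 111 ± 30.0 CPM in the intima against 16.1 ± 6.91 and 27.8 ± 11.6 CPM in the media (SD, n = 4; log2 fold changes 2.23, SE 0.41, q = 0.0450, and 2.07, SE 0.34, q = 0.0336). OCLN had 1.61 without rabbit 6 and 2.86 without rabbit 5. GJA5, the gap junction protein connexin 40 of arterial endothelium, had 30.0, 57.6, 79.8 and 45.7 CPM in the intima and 5.33, 7.95, 8.19 and 10.8 CPM in the media (log2 fold change 2.68, SE 0.41, q = 0.0281). The 13 tested genes of the blood-brain barrier list, transporters and other genes, had 0 calls (1.53% over all genes) and a median of -0.34. Its members differed in both directions, 3 higher in the intima and 4 higher in the media in 4 of 4 pairs. ABCB1 had a log2 fold change of 2.64 (SE 0.54, q = 0.0569) and TFRC one of -0.98 (SE 0.20, q = 0.0573), neither past the test.

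Shear and inflammation genes gave calls in both directions, 2 of 15 in the intima (VCAM1 and TXNIP) and 1 in the media (CCL2), with a median of 0.50. Over all genes 0.924% were called in the intima and 0.605% in the media. TXNIP, the thioredoxin-binding protein, had 143, 357, 285 and 215 CPM in the intima and 56.5, 44.0, 57.4 and 37.1 CPM in the media (log2 fold change 2.31, SE 0.32, q = 0.0251). CCL2, the monocyte chemoattractant, was at 0 in 3 intimal libraries and at 0.333 CPM in the BT intima of rabbit 6, and had 32.0, 1.59, 29.3 and 51.4 CPM in the media (q = 0.0248). The leukocyte adhesion molecule and the chemokine were thus higher in different layers of the same arteries. Coagulation genes gave 1 call of 14 in each direction, ENTPD1, the ectonucleotidase that removes ATP and ADP, in the intima (log2 fold change 2.33, SE 0.39, q = 0.0366, 1.57 without rabbit 6 and 3.07 without rabbit 5) and TFPI in the media. Their median of -0.09 became 0.14 when libraries were scaled to their size alone.

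TGF-beta and BMP genes had 2 of 23 calls, both in the media, where 0.605% of all genes were called. In either direction 1.53% of all genes were called, near which 0 or 1 call in a short list lies. The 2 TGF-beta and BMP calls were the ligand TGFB2, with 245, 123, 134 and 99.4 CPM in the intima and 482, 420, 340 and 338 CPM in the media (log2 fold change -1.46, SE 0.23, q = 0.0281), and the receptor BMPR1A (log2 fold change -1.54, SE 0.22, q = 0.0281). The layers did not overlap for either. The 11 Notch genes had 0 calls, though the ligands DLL1 and DLL4 were above the media in 4 of 4 pairs (q = 0.0618 and q = 0.143). The 23 growth factors and receptors had 0 calls and a median of -0.01. Lineage transcription factors had 0 calls of 5 for endothelium (median 1.10) and 0 of 15 for smooth muscle (median -1.08). The 15 immediate early genes had 0 calls and a median of -0.97, and the 15 interferon response genes 1 call, B2M. As lists of genes used by every cell, 40 subunits of oxidative phosphorylation had 0 calls and a median of 0.02, and 29 ribosomal proteins 0 calls and a median of -0.21, which became 0.02 with scaling to library size.

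**Figure D4:**
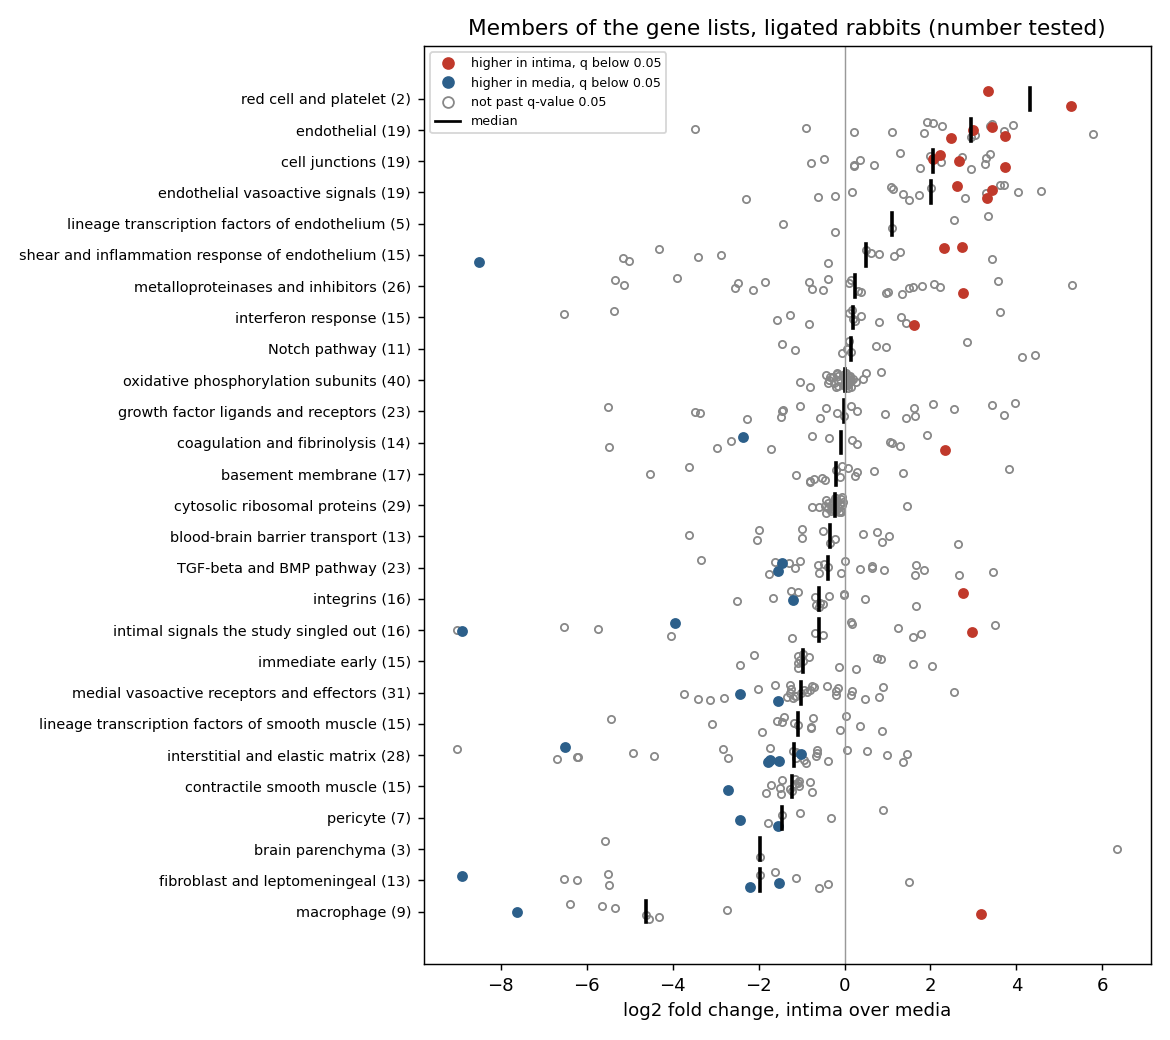
Log2 fold change of intima over media for every tested member of 27 gene lists (1 list a row, number tested in brackets), with filled points for members past a q-value of 0.05, open points for the others and a bar at the list's median. Fitted values of members with no or 1 to 3 counts in a layer are shown as fitted and are no measure of size. Endothelial and junction genes lie mostly right of 0 and contractile, matrix and fibroblast genes mostly left, and most members of every list but the red cell list are open.

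The study singled out 18 intimal genes with secreted products as possible signals to the media. It chose them on these samples, so their direction is not independent evidence. In the study ligation raised IL15 and ADAMTS9 in the intima and lowered SPP1, LUM, CYTL1, MFAP5 and PLA2G7 there. Low levels of the latter in the ligated intima are thus part of how they were chosen. Of the 16 tested here, 1 was higher in the intima, 2 were higher in the media, and the median log2 fold change was -0.60. For 10 of the 16 the edgeR layer by flow interaction had an unadjusted p below 0.05, against 3.81% of all genes. IL15, a cytokine, had 70.1, 55.9, 162 and 72.5 CPM in the intima and 13.3, 7.42, 13.9 and 8.98 CPM in the media (log2 fold change 2.97, SE 0.34, q = 0.0246). SPP1, the secreted phosphoprotein osteopontin, had 13.2, 24.7, 46.1 and 4.50 CPM in the intima and 271, 176, 236 and 497 CPM in the media (log2 fold change -3.96, SE 0.73, q = 0.0450). The value for SPP1 was -4.76 without rabbit 5 and -3.16 without the BT pair of rabbit 6. The third call was LUM. IL15 thus lay above the media in every pair and SPP1 and LUM below it, without overlap. ADAMTS9, a secreted metalloproteinase, was above the media in 4 of 4 pairs, at 31.2, 102, 142 and 149 CPM in the intima and 18.1, 14, 59.3 and 53.1 CPM in the media (q = 0.0851). CYTL1 was above the media in 4 of 4 pairs too, at 1334 ± 338 CPM in the intima and 460 ± 345 CPM in the media (SD, n = 4; q = 0.0895). MFAP5, a microfibril protein, had no count in any intimal library, and its mean of 10.9 CPM in the media was at least 32.3-fold higher than the mean of the per-library limits that a count of 0 allows (3 counts each, counting error only), but it did not pass (q = 0.0724). PLA2G7 had at most 1.38 CPM in the intima and 3.71 to 38.9 CPM in the media (q = 0.102).

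**Figure D5:**
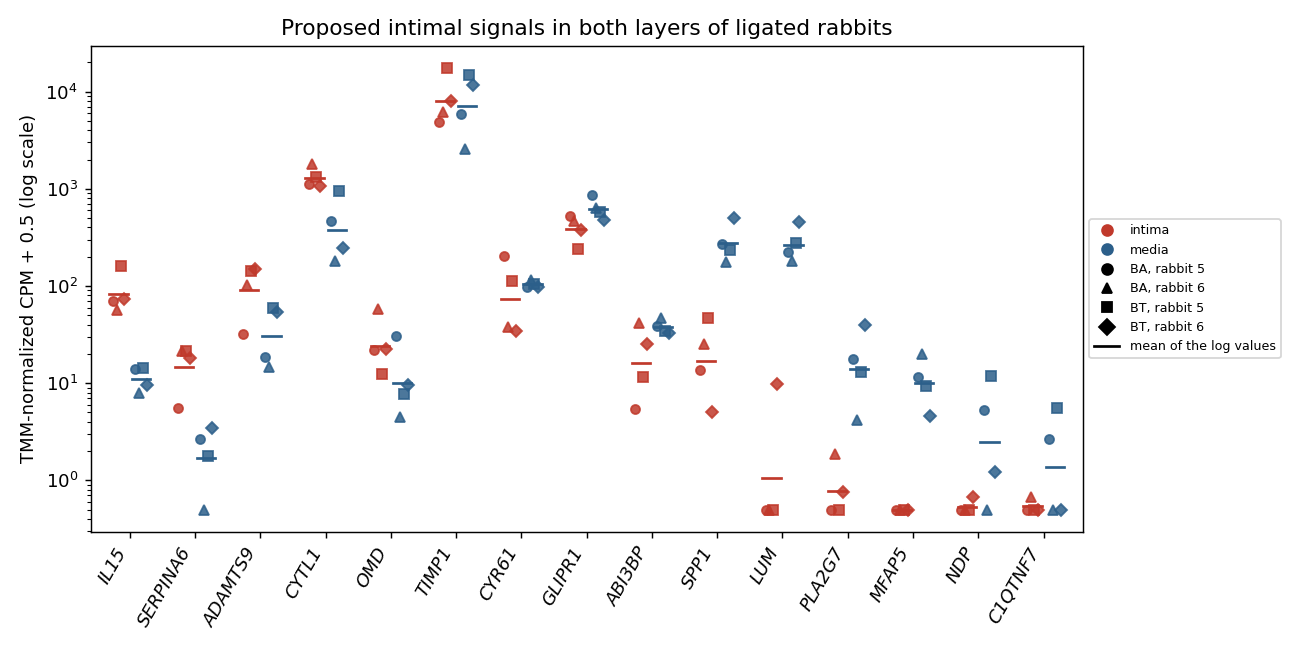
Levels of 15 of the 16 tested genes that the study proposed as intimal signals, in TMM CPM plus 0.5 (log scale), in the 4 intimal (red) and 4 medial (blue) libraries of ligated rabbits, with a symbol for each rabbit and location and a bar at the mean of the log values. IL15, SERPINA6, ADAMTS9 and CYTL1 lie above the media in every pair, TIMP1 overlaps, and SPP1, LUM, PLA2G7 and MFAP5 lie below all medial points.

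Whether the layer difference depended on location was tested as an interaction in the same 8 libraries. No gene passed (edgeR, smallest q-value 1), 176 genes had an unadjusted p below 0.05 (2.01%), and DESeq2 called 24. The smallest p-values toward the BT belonged to EFHB, ST3GAL6, NSDHL and HBEGF, and toward the BA to PROS1, CD74, ISG15 and LPAR6. HBEGF, an EGF receptor ligand, had 31.0 and 12.3 CPM in the BA intima and 257 and 33.3 CPM in the BT intima of rabbits 5 and 6, against 28.8, 40.0, 33.7 and 7.45 CPM in the media. The BT intima of rabbit 5 carried most of that difference. ISG15, an interferon-induced ubiquitin-like protein, had 120 and 384 CPM in the BA intima, 20.1 and 44.1 CPM in the BT intima and 139, 89.1, 177 and 429 CPM in the media. The intima was thus the higher layer for ISG15 in the BA of rabbit 6 alone.

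Against the rabbits with normal flow, the layer difference was tested as an interaction over all 16 libraries of 4 rabbits. No gene of 9544 passed (edgeR, smallest q-value 0.612), 364 had an unadjusted p below 0.05 (3.81%), and DESeq2 called 51. Sham libraries alone gave 50 genes past the test (0.546%), 46 higher in the intima and 4 in the media. Of the 134 genes called after ligation, 129 (96.3%) had the same sign in the sham pairs, against 66.6% of the 8387 genes with a value in both, and 11 passed in both. The 11 were CLDN5, CTSZ, FAM120B, GCHFR, ITGB4, ITPRID2, LDB2, LTC4S, PNP, PTPRG and VCAM1, each higher in the intima in both flow groups. The 5 genes with opposite signs were CD163, SPP1, CCL2, GRN and RABGAP1, named for their sign after their values were seen.

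RABGAP1, a GTPase-activating protein of membrane traffic, had the smallest interaction p. On the scale of all 16 libraries it had 89.4, 65.9, 124 and 63.7 CPM in the ligated intima and 31.1, 28.6, 29.3 and 10.9 CPM in the ligated media. The sham intima had 101, 35.7, 85.5 and 54.5 CPM and the sham media 156, 52.0, 107 and 100 CPM, in the order BA and BT of rabbits 3 and 4. The intima was thus the higher layer in all 4 ligated pairs and the lower in all 4 sham pairs, and the ligated media lay below the sham media without overlap (interaction 2.43 on the log2 scale, SE 0.40, unadjusted p = 6.41e-05, q = 0.612). GRN, the lysosomal growth factor progranulin, had an interaction of 1.89 (SE 0.40, q = 0.831), STOM of 1.38 (SE 0.30, q = 0.831) and GALC of 2.70 (SE 0.60, q = 0.831).

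In the opposite direction SPP1 and CCL2 led. SPP1 had 13.1, 24.5, 45.5 and 4.45 CPM in the ligated intima, 268, 174, 233 and 492 CPM in the ligated media, 419, 228, 318 and 1726 CPM in the sham intima and 447, 253, 276 and 244 CPM in the sham media. Its medial ranges overlapped between the flow groups and its intimal ranges did not (interaction -4.57, SE 0.98, q = 0.831). CCL2 had at most 0.329 CPM in the ligated intima but 66.2, 0, 46.1 and 13.2 CPM in the sham intima (interaction q = 0.831). SLC26A7 and SLC9A2, ion exchangers, completed the 4 smallest p-values, and SLC26A7 rested on 1 sham library, the BT intima of rabbit 3, with 200.9 CPM. Of the macrophage list, the median layer difference was -4.62 after ligation and 0.30 in the sham pairs. The first is the fitted value of C1QC, which had 0 counts in the BT intima of rabbit 5, and is no measure of size. By ligated pair the list's median log2 ratios were -0.19 and -3.47 in the BA and -4.07 and -3.95 in the BT of rabbits 5 and 6. TIMP1 had 4763 to 17325 CPM in the ligated and 349 to 656 CPM in the sham intima, with the media at 2538 to 14646 and 917 to 1050 CPM, so that both layers were higher in the ligated rabbits while the layers of those rabbits overlapped.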

How the data were processed

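RNA from laser-microdissected intima and media (sections of 8 µm, strips of 10 µm for the intima) was amplified by the authors with SMART-Seq v4, made into Nextera libraries, aligned to oryCun2.0 with STAR (version not given in the sources used here) and counted with featureCounts 1.6.2. The deposited values are these raw counts per gene symbol, not normalized, with the strand setting 2 and a mapping quality of 60. Such libraries do not keep strand, so antisense and overlapping genes cannot be told apart. The entry without a symbol (14.8% to 18.6% of the counts of a library) was left out, and 22 symbols replaced by dates were kept but not named. One gene of the lists is counted but not reported here.

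The authors' counts of 8 libraries were scaled by TMM, and genes with a mean CPM above 1 in a layer were fitted with edgeR 4.0.16 in R 4.3.3 (quasi-likelihood F test, older form, two-sided, q below 0.05), with pair as block. Pairs share animal and location per the labels, and deviations of paired libraries correlated at 0.0114 to 0.0705. Intimal and medial libraries of different pairs correlated at -0.0949 to 0.0768, so these values do not set the pairs apart. Both interactions were fitted likewise. A log2 fold change is of intima over media, and SE is its standard error. The members and the 28 lists were chosen with earlier results of these data known. Named genes were the 10 with the smallest q-value (same way in 4 pairs) and the 10 with the highest mean CPM in each direction, list members where a list is described, and 4 genes in each direction of an interaction by p. The libraries of a layer come from 2 rabbits. On simulated data 63.5% of 200 genes changed by 3 on the log2 scale were found in the layer comparison, with 12 false calls. For location and flow the layers differed by 3 in opposite directions in the 2 groups compared, so the simulated interaction was larger than 3. There 65.5% and 67.5% of 200 genes were found, with 25 and 8 false calls. An interaction of 3 was not simulated. Counts were drawn independently for each library, so these false calls leave out that 2 pairs shared an animal. Alternatives were other blocks, scalings and filters, DESeq2 1.42.0, edgeR's version 4 form, limma 3.58.1 voom, and leaving out pairs or rabbits. An interval or a limit for a count of 0 covers counting error only. No genome of the files' build was used here.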

Additional observations from a re-analysis of the deposited data

Results flagged for a closer look

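In groups of 4 libraries, each layer of the ligated rabbits was searched for a library that stood apart from the other 3 (by Dixon's test at its 95% critical value, on log2 of CPM plus 0.5), for the genes named and the marker sums. Of 244 such groups 20 met it, where chance gives about 1 in 20, and their causes were not tested. In 7 of the 20 the other 3 libraries were at 0, so that any count in the fourth met it and the chance rate does not hold. These 7 were LUM, MATN2, SCN7A, CCL2, PLXDC1, CD163 and the lymphocyte markers, and PLXDC1 and CD163 rested on 1 count each. The BT intima of rabbit 5 stood apart as the lowest library for the summed contractile markers (16488 CPM), ACTA2 (10371 CPM) and MYH11 (107 CPM) and as the highest for VCAM1 (7546 CPM). The BA intima of rabbit 5 stood apart as the highest intimal library for TYROBP (36.4 CPM), MRC1 (6.46 CPM) and STEAP4 (9.48 CPM) and as the lowest for SERPINA6 (5.06 CPM) and the summed endothelial markers (4276 CPM). That library had the lowest listed RNA concentration of the series, and whether this has a part in its values was not tested. The BT intima of rabbit 6 was the highest for LUM (9.24 CPM), MATN2 (5.41 CPM), ADGRD1 (1.17 CPM), SCN7A (0.833 CPM), CCL2 (0.333 CPM) and PLXDC1 (0.0833 CPM), and for the summed lymphocyte (2.17 CPM) and brain parenchyma (13.6 CPM) markers. The BA intima of rabbit 6 held the single intimal count of CD163 (0.173 CPM). In the media, the BA of rabbit 6 was lowest for PTGS2 (15.1 CPM) and the BT of rabbit 6 for RABGAP1 (11 CPM).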

How the results depend on the processing

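The count of 134 genes became 231 with no pairing of libraries (the block removed), 279 with the rabbit as block, 280 over all genes with a count, 1073 with DESeq2, 449 with edgeR's version 4 form and 493 with limma voom. It was 0 in the BA pairs alone and 0 in the BT pairs alone, and ranged from 0 to 143 when a pair or a rabbit was left out. No gene passed either interaction in any edgeR fit, whereas DESeq2 called 24 for location and 51 for flow. Of the 134 genes, 35 passed in each of 11 settings of block, scaling, filter and tool, 27 higher in the intima and 8 in the media, and none changed sign where tested. Without the block DES, PTGS2, PTHLH and VCAM1 no longer passed (q = 0.0674, 0.0592, 0.102 and 0.0558), and TEK, DLL1, MFAP5 and ADAMTS9 did (q = 0.0250, 0.0275, 0.0206 and 0.0449). With scaling to library size CALU, CD163, COL1A2, CTSK, FBN1, ITGA5 and SPP1 no longer passed (q = 0.0530 to 0.0820), and CD163 had q = 0.0515 in the version 4 form. Named genes that reversed were not called in any of these fits. NSDHL had a log2 fold change of 0.15 with library size, 0.23 with voom, 0.39 with rabbits summed and 1.27 in the BT alone, ST3GAL6 1.29 and EDN1 -0.088 in the BT alone, HBEGF -0.78, ISG15 0.98 and PROS1 1.12 in the BA alone, and TIMP1 -0.11 with rabbits summed and -0.16 in the BT alone. With a pair or a rabbit left out NSDHL ranged from -0.69 to 0.44, ST3GAL6 from -1.30 to 0.38, EDN1 from -1.56 to 4.74, ESAM from -0.21 to 0.65 and TIMP1 from -0.20 to 0.40. The cause was not tested. The shallowest library was medial, with 2154863 counts, and depth limits the levels that can be read near 0 in any library.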

Other observations

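Some of the 134 genes called between the layers belong to groups that no list held. They are given as values, and they were chosen after their values were seen. Cathepsins, the lysosomal proteases, lay in both layers. CTSE had 91.9, 24.9, 127 and 91.0 CPM in the intima of the BA and BT of rabbits 5 and 6 and 5.87, 0, 0.630 and 0 CPM in the media (edgeR's quasi-likelihood test, q = 0.0281), and CTSZ had 206 ± 21.8 and 34.3 ± 18.3 CPM (SD, n = 4; log2 fold change 2.73, SE 0.35, q = 0.0251). CTSS was higher in the intima by 1.5 (SE 0.22, q = 0.0281), whereas CTSK was higher in the media. Beside PNP and ENTPD1, a further called gene that handles purines was P2RX7, the ATP-gated channel, with 163, 258, 178 and 226 CPM in the intima and 58.1, 26.8, 39.7 and 14.7 CPM in the media (log2 fold change 2.72, SE 0.44, q = 0.0308, 1.83 without rabbit 6 and 3.61 without rabbit 5).

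Secreted or receptor genes of the intima included DKK2, a Wnt modulator, with 532, 542, 666 and 708 CPM against 161, 27.6, 149 and 99.6 CPM in the media (log2 fold change 2.72, SE 0.42, q = 0.0281). SEMA3F, a secreted semaphorin, was higher in the intima by 2.82 (SE 0.54, q = 0.0488), MET, the receptor of hepatocyte growth factor, by 2.56 (SE 0.41, q = 0.0308), and LTC4S, leukotriene C4 synthase, by 2.86 (SE 0.51, q = 0.0410). BMX, a tyrosine kinase of arterial endothelium, had 724 ± 210 CPM in the intima and 94.2 ± 62.0 CPM in the media (SD, n = 4; log2 fold change 3.26, SE 0.46, q = 0.0269). Without rabbit 6 and without rabbit 5 the values were 1.95 and 3.54 for DKK2, 1.90 and 3.71 for SEMA3F, 2.15 and 3.60 for LTC4S and 2.59 and 4.01 for BMX. In the media, called genes with the pattern of LUM included 4 more, beside SCN7A, PLXDC1, CCL2, CD163 and VCAN. These 4 had at most 9.48 CPM in any intimal library. MATN2, a matrilin of filamentous matrix, had 39.2 to 87.8 CPM in the media (q = 0.0384), STEAP4, a metalloreductase, 88.3 to 118 CPM (q = 0.0418), GFPT2, an enzyme of hexosamine synthesis, 31.3 to 104 CPM (q = 0.0308) and ADGRD1, an adhesion receptor coupled to G proteins, 15.6 to 31.6 CPM (q = 0.0333).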
